A study of Mus musculus with 8 samples.

Results

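The genes described here are 30 genes of cholesterol and fatty acid synthesis that are targets or partners of the sterol regulatory element-binding proteins (SREBPs). They were chosen by name for their place in the pathway and were found in the deposited count table by Ensembl identifier through the symbols of GENCODE vM21, as 30 of 52636 genes. RNA was measured in primary microglia, the resident immune cells of the brain, from mice with WT genotype and C57BL/6 background (for wild-type pups the methods name C57BL/6N). The cells had been shaken off the astrocyte layer of mixed glial cultures of neonatal brain and were kept in DMEM, to which FBS (10%) and recombinant CSF-1 (10 ng/ml), a growth factor that microglia need to survive, had been added. The LPS group received 5 µg/ml LPS from Invitrogen, a bacterial endotoxin sensed by the receptor TLR4, and the Vehicle group received the vehicle alone, both for 24 h, with 4 libraries in each group. The labels number the libraries as biological replicates, and no source states whether a Vehicle and an LPS library of the same number share a starting culture.

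Cholesterol is built from acetyl-CoA through mevalonate, farnesyl diphosphate, squalene and lanosterol, and fatty acids are built from acetyl-CoA through malonyl-CoA. The SREBPs are transcription factors made as membrane proteins of the endoplasmic reticulum, where SCAP escorts them to the Golgi when sterols are low, INSIG proteins hold SCAP back when sterols are high, and the site-1 and site-2 proteases of the Golgi release the active part. SREBP-2 is best known for sterol genes and SREBP-1 for fatty acid genes, and the brain makes its own cholesterol behind the blood-brain barrier, where microglia clear and recycle cholesterol of cell debris and myelin.

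The total count was 22796052, 22595657, 26129375 and 21370879 in Vehicle replicates 1 to 4 and 20071921, 22529706, 30604447 and 22581615 in LPS replicates 1 to 4. Vehicle libraries had counts for 19519 to 20280 genes and LPS libraries for 18236 to 18467. Within each group the libraries were distinct, since even the most similar pair, LPS replicates 2 and 4, had a chi-square of 6.45 for each degree of freedom. Vehicle libraries were not compared with LPS libraries in this way. Levels are given as CPM, the count relative to a library total that was scaled by the TMM method for differences in RNA composition. The TMM factors were 1.21 to 1.32 in Vehicle and 0.701 to 0.833 in LPS, so the scaling itself separated the groups.

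The LPS label was checked with 4 genes that LPS is known to induce. Nos2, the inducible nitric oxide synthase, was at 1.02 ± 0.461 CPM in Vehicle and 11584 ± 452 CPM in LPS (SD, n = 4). The cytokine genes Il1b, Il6 and Tnf rose from 41.3, 0.121 and 32.1 to 3426, 500.5 and 645 CPM, and for each of the 4 genes every LPS library was above every Vehicle library. The cell type was checked with marker lists. The summed level of 10 microglial markers was 12113, 11805, 12791 and 11317 CPM in Vehicle replicates 1 to 4 and 5883, 5363, 6317 and 5271 CPM in LPS replicates 1 to 4, with Csf1r the most abundant (3181 CPM in Vehicle), and 7 of the 10 were lower and 1 higher after LPS. The 8 astrocyte markers summed to 37.6, 46.9, 20.01 and 45.0 CPM in Vehicle and 123, 41.0, 45.5 and 48.8 CPM in LPS. Of 7 tested, 3 were lower and 1, Gja1, was higher after LPS, and the most abundant was Aldh1l1 (11.6 CPM in Vehicle). Gja1 rose from 0.873 to 48.6 CPM and was at 98.1 CPM in LPS replicate 1. Aldh1l1 fell from 11.6 to 3.83 CPM, Gfap from 5.96 to 1.14 CPM and Aqp4 from 1.83 to 0.181 CPM. The 6 oligodendrocyte markers summed to 184, 174, 205 and 150 CPM in Vehicle and 212, 225.4, 188 and 237 CPM in LPS, with 1 lower and 1 higher of 4 tested and Mobp at 0 in every library. The most abundant of them, Cnp, rose from 88.6 to 195 CPM. Mbp fell from 84.0 to 15.3 CPM. The 5 fibroblast markers stayed at or under 3.68 CPM in Vehicle and were at 5.14 to 20.9 CPM in LPS (1 of 1 tested, Dcn, higher). That rise came mostly from Dcn (0.136 to 8.90 CPM). Lum, which was not tested, went from 0.0396 to 0.545 CPM. Col1a1, the most abundant in Vehicle, went from 0.530 to 0.0954 CPM, Col1a2 from 0.392 to 0.0272 CPM and Col3a1 from 0.286 to 0.0266 CPM. The 5 endothelial markers summed to 31.05 to 73.5 CPM in Vehicle and 163 to 254 CPM in LPS (3 of 3 tested higher), with Flt1 the most abundant, Cldn5 at 0 and Tek at no more than 3 counts. The part of these differences in the levels of the SREBP genes was not tested.

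Of the 30 SREBP genes, 26 were called lower after LPS at an adjusted p under 0.05, and 0 were called higher. Across all 13847 genes that passed the filter on low counts, 33.8% were called lower (4686 genes) and 30.3% higher (4191 genes). The median log2 fold change of LPS over Vehicle was −1.58 over the 28 SREBP genes that were tested and −0.11 over all tested genes. The tested SREBP genes ranged from −3.75 for Stard4 to −0.09 for Srebf1, and 20 were at least 2-fold, 8 at least 4-fold and 4 at least 8-fold lower (24.2%, 9.46% and 4.15% of all tested genes). The genes Nsdhl and Srebf1 were tested and not called, and Idi1 and Fdps did not pass the filter. The count of higher genes was also 0 with edgeR at an unadjusted p under 0.05, which 4376 of all 13847 tested genes passed as higher. As no tested SREBP gene had a log2 fold change above 0 in that fit, no p threshold could have given a higher call. With DESeq2, which called 24.8% of all its tested genes higher, the count was 0 too. In 22 of the 30 genes, among them the untested Idi1, every LPS library was below every Vehicle library. Of all tested genes, 31.5% were separated in that direction. The groups overlapped in the other 8 SREBP genes. In bulk samples, fewer cells of a type and less RNA per cell cannot be told apart. With library totals in place of the TMM scaling, an alternative added after seeing the data, 28 SREBP genes were lower and 0 higher, against 61.1% lower (8457 genes) and 14.4% higher (1988 genes) of all tested genes.

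Of the tested SREBP genes, 25 reached the level of the filter in all 8 libraries. Scd1, Elovl6 and Fads2 reached it in the 4 Vehicle libraries and in 3 LPS libraries, and none of the tested genes passed through the Vehicle libraries alone. Idi1, which interconverts the isoprene building blocks, had 26, 18, 7 and 11 counts in Vehicle and 1, 0, 0 and 0 counts in LPS, so that every LPS library was at or under a floor of 3 counts. Fdps, which makes farnesyl diphosphate, had 12, 2, 8 and 7 counts in Vehicle and 2, 1, 0 and 0 counts in LPS. Fitted without a filter on low counts, Idi1 had an adjusted p of 0.000618 and Fdps of 0.0520 (edgeR). Both counts are uncertain, and whether their reads were assigned to other genes was not tested. In all, 25.3% of the 50-base windows of the Idi1 transcripts and 26.2% of those of Fdps also occurred in other annotated genes. Only uniquely aligned reads had been counted. Fdps overlaps Gm43738 on its own strand over 26.7% of its exonic bases and shares windows with Gm3571, which held 69, 52, 25 and 41 counts in Vehicle and 8, 10, 8 and 5 in LPS.

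**Figure D1:**
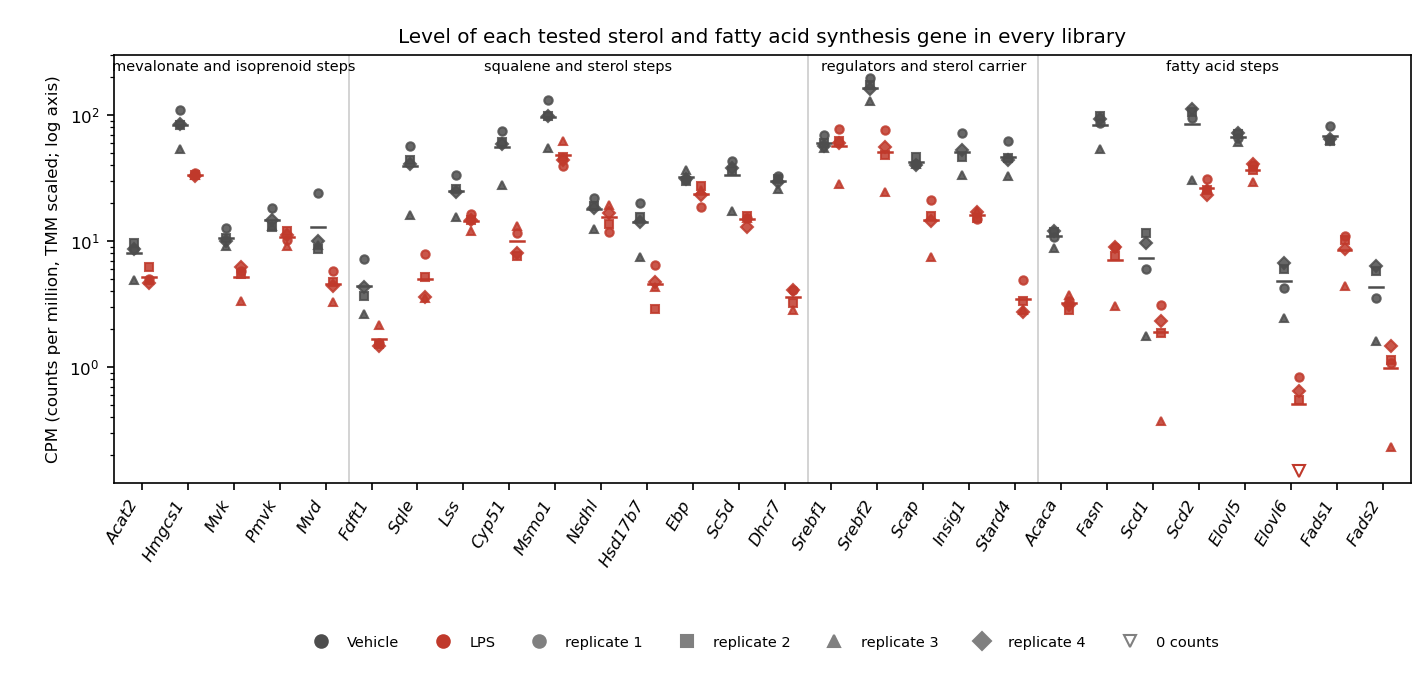
Level of each of the 28 tested SREBP genes in every library, in CPM on a log axis, with grey points for Vehicle, red points for LPS, a symbol for each replicate number, a bar at each group mean and an open triangle for 0 counts. Srebf1 and Nsdhl, the genes not called, have overlapping groups, as do Acat2, Lss, Msmo1, Scd1 and Scd2. Stard4 and Fasn fell most, by 13.4-fold and 11.7-fold in the edgeR fit, and the triangles of replicate 3 are often the lowest points of a group.

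Replicate 3 stood apart for these genes in Vehicle and less so in LPS. Vehicle replicate 3 held the lowest Vehicle level of 23 of the 28 tested SREBP genes, whereas it was the lowest for 30.6% of all tested genes, and its median log2 difference from the other Vehicle libraries was −0.77 over the SREBP genes and 0.00 over all tested genes. Vehicle replicate 1 held the highest Vehicle level of 18 of the 28 (25.8% of all tested genes). LPS replicate 3 was lowest in its group for 15 of the 28 and highest for 6 (33.7% and 40.8% of all tested genes), with a median log2 difference of −0.33 from the other LPS libraries (0.07 over all tested genes). LPS replicate 1 differed about as far the other way (0.31) and was highest for 14 (25.4% of all tested genes). The median SD of log2 CPM between Vehicle libraries was 0.43 over the SREBP genes and 0.19 over all tested genes, and 0.20 and 0.15 without replicate 3. Between LPS libraries it was 0.32 and 0.31. Within replicate numbers 1 to 4, the median log2 difference of LPS from Vehicle over the SREBP genes was −1.65, −1.58, −1.06 and −1.54 (−0.13, −0.09, −0.08 and −0.11 over all tested genes). In the same order, 27, 27, 26 and 27 of the 28 genes were lower in LPS (55.0%, 53.7%, 52.2% and 54.2% of all tested genes). Without replicate 3 of both groups, an alternative added after seeing the data, 26 of 29 tested SREBP genes were called lower and 0 higher (34.8% and 32.9% of all tested genes) with a median of −1.66, and 24 of the 26 calls above were among them. The summed level of 6 markers of oligodendrocyte precursor cells, another glial type of such cultures, was 51.8, 82.1, 18.3 and 81.4 CPM in Vehicle and 20.8, 14.98, 1.87 and 16.9 CPM in LPS, also lowest in replicate 3 of each group. Of these markers 5 were tested and 3 were lower after LPS, the most abundant was Ptprz1 (20.2 CPM in Vehicle), and none was at the floor in all 8 libraries. Of the 8 astrocyte markers, Gfap, Slc1a2 and Slc1a3 were also lowest in replicate 3 of each group. Gfap was at 1.52 CPM in Vehicle replicate 3 and 0.0466 CPM in LPS replicate 3. Aldh1l1 was highest in replicate 3 of each group (12.3 and 5.04 CPM). Aqp4, Gja1, Aldoc and S100b were not lowest in LPS replicate 3. The part of these glial markers in the levels of the SREBP genes was not tested.

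Among the regulators and the sterol carrier, 4 of the 5 genes were lower after LPS (median log2 fold change −1.67). Srebf2 (ENSMUSG00000022463, chromosome 15 from 82147181 to 82205379 of GRCm38), which encodes SREBP-2, was at 198, 174, 130 and 161 CPM in Vehicle replicates 1 to 4 and at 76.4, 48.7, 24.6 and 55.8 CPM in LPS replicates 1 to 4. The LPS libraries all lay below the Vehicle libraries, replicate 3 was lowest in both groups, and the log2 fold change was −1.69 (standard error 0.30, adjusted p = 0.00072). Srebf1 (ENSMUSG00000020538, chromosome 11 from 60199089 to 60222581), the gene of SREBP-1a and SREBP-1c, gave 70.3, 60.6, 55.0 and 57.1 CPM in Vehicle and 77.4, 62.7, 28.6 and 59.99 CPM in LPS. Its groups overlapped, with LPS replicate 1 the highest and LPS replicate 3 the lowest of the 8, and it was not called (log2 fold change −0.09, standard error 0.25, adjusted p = 0.771). The sign of Srebf1 rested on single libraries, since the value was 0.14 without LPS replicate 3, 0.04 without Vehicle replicate 1 and 0.17 without replicate 3 of both groups, none of them called. With library totals in place of the TMM scaling it was −0.74 and called (adjusted p = 0.0426), under a scaling that moved the median of all tested genes by −0.68, and its adjusted p over the other alternatives ran from 0.278 to 0.935.

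Scap (ENSMUSG00000032485, chromosome 9 from 110333288 to 110384950), the escort of the SREBPs, measured 40.8, 46.7, 41.2 and 40.4 CPM in Vehicle and 21.4, 15.96, 7.46 and 14.4 CPM in LPS. Vehicle libraries were close together and LPS libraries spread widely below them (log2 fold change −1.52, standard error 0.26, adjusted p = 0.000616). Of its exonic bases, 13.2% lie opposite to exons of 5830462I19Rik, and whether counting used the strand was not stated, so its count is uncertain to that extent. Insig1 (ENSMUSG00000045294, chromosome 5 from 28071363 to 28078662), which retains SCAP in the endoplasmic reticulum, had 72.7, 46.2, 33.4 and 53.4 CPM in Vehicle against 14.96, 15.1, 17.5 and 17.1 CPM in LPS. Here the Vehicle libraries were the more variable ones, LPS replicate 3 was the highest of its group, and the groups were apart (log2 fold change −1.67, standard error 0.21, adjusted p = 9.76e-05). Stard4 (ENSMUSG00000024378), a soluble carrier that moves cholesterol between membranes, was at 61.9, 46.0, 33.2 and 44.2 CPM in Vehicle and at 4.91, 3.32, 2.85 and 2.76 CPM in LPS. It was 13.4-fold lower after LPS, the largest fall among the tested SREBP genes (log2 fold change −3.75, standard error 0.25, adjusted p = 1.72e-06), and every LPS library was below every Vehicle library.

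Of the 7 genes of the mevalonate and isoprenoid steps, 5 were tested, and all 5 were lower after LPS (median log2 fold change −1.03). Hmgcs1 (ENSMUSG00000093930, chromosome 13 from 119690379 to 119708260), the cytosolic HMG-CoA synthase, had 110, 83.7, 53.8 and 85.6 CPM in Vehicle and 34.6, 33.3, 33.3 and 32.7 CPM in LPS. The Vehicle libraries varied far more than the LPS libraries (SD 23.1 and 0.807 CPM), with no overlap (log2 fold change −1.32, standard error 0.19, adjusted p = 0.00019). Exons of Gm48342 on the other strand cover 12.1% of the exonic bases of Hmgcs1. Mvd (ENSMUSG00000006517, chromosome 8 from 122433601 to 122443422), which decarboxylates mevalonate diphosphate, measured 24.3, 8.68, 9.26 and 10.1 CPM in Vehicle and 5.80, 4.74, 3.31 and 4.38 CPM in LPS. Vehicle replicate 1 lay far above the rest of its group, and the log2 fold change of −1.52 (standard error 0.35, adjusted p = 0.00394) became −0.997 without that library, still past the threshold. Mvk (ENSMUSG00000041939, chromosome 5 from 114444269 to 114460591), mevalonate kinase, had 12.7, 10.7, 9.10 and 10.0 CPM in Vehicle and 5.75, 5.50, 3.36 and 6.22 CPM in LPS. No LPS library reached a Vehicle library (log2 fold change −1.03, standard error 0.21, adjusted p = 0.00172).

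Acat2 (ENSMUSG00000023832, chromosome 17 from 12942890 to 12960747), the thiolase that joins acetyl-CoA units at the start of the pathway, was at 8.68, 9.69, 4.95 and 8.73 CPM in Vehicle and 5.03, 6.21, 4.90 and 4.65 CPM in LPS. Vehicle replicate 3 lay among the LPS libraries, and the fall was small (log2 fold change −0.62, standard error 0.22, adjusted p = 0.0319). The call was lost without Vehicle replicate 1, 2 or 4 or without LPS replicate 1, 3 or 4, where the log2 fold change was −0.60 to −0.49, with an adjusted p of 0.00458 to 0.105 over the 8 libraries left out in turn. Of the 50-base windows of Acat2, 39.1% also occurred in Acat3 or in the neighbouring gene Tcp1, and Acat3 itself held 10 to 26 counts per library, against 84 to 280 for Acat2. Pmvk, phosphomevalonate kinase, had 14.8 ± 2.52 CPM in Vehicle and 10.7 ± 1.24 CPM in LPS (SD, n = 4), a log2 fold change of −0.47 (adjusted p = 0.0215) without overlap. Its call was lost without Vehicle replicate 1 (log2 fold change −0.31), without Vehicle replicate 4 (−0.45) and without replicate 3 of both groups (−0.38), and the adjusted p over the libraries left out in turn ran from 0.0257 to 0.0967.

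The squalene and sterol steps held 10 genes, all tested, of which 9 were lower after LPS and 1, Nsdhl, was not called (median log2 fold change −1.29). Dhcr7 (ENSMUSG00000058454, chromosome 7 from 143823145 to 143848410), the reductase that turns 7-dehydrocholesterol into cholesterol, had 32.7, 31.4, 25.9 and 29.7 CPM in Vehicle and 4.13, 3.21, 2.85 and 4.11 CPM in LPS. It was even within both groups and far apart between them, and with an 8.38-fold fall it had the smallest adjusted p of the SREBP genes (log2 fold change −3.07, standard error 0.16, adjusted p = 4.47e-07). Sqle (ENSMUSG00000022351, chromosome 15 from 59315077 to 59331192), squalene epoxidase, was at 56.9, 44.0, 16.05 and 40.7 CPM in Vehicle and at 7.84, 5.17, 3.54 and 3.62 CPM in LPS. Vehicle replicate 3 was well under the other Vehicle libraries and still above all LPS libraries (log2 fold change −2.97, standard error 0.40, adjusted p = 0.000141). Cyp51 (ENSMUSG00000001467, chromosome 5 from 4081145 to 4104746), lanosterol demethylase, gave 75.3, 60.9, 27.8 and 59.2 CPM in Vehicle and 11.7, 7.57, 13.2 and 8.01 CPM in LPS. Replicate 3 was the lowest Vehicle library and the highest LPS library, and the groups did not overlap (log2 fold change −2.46, standard error 0.31, adjusted p = 8.65e-05). Hsd17b7 (ENSMUSG00000026675, chromosome 1 from 169949535 to 169969241), a ketoreductase of the demethylation steps, had 20.1, 15.6, 7.49 and 14.1 CPM in Vehicle and 6.46, 2.89, 4.34 and 4.71 CPM in LPS. The lowest Vehicle library was only a little above the highest LPS library (log2 fold change −1.64, standard error 0.32, adjusted p = 0.00147).

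The other sterol genes had smaller falls. Fdft1, squalene synthase, went from 4.44 ± 1.95 to 1.67 ± 0.318 CPM (log2 fold change −1.40, adjusted p = 0.00388), with counts of only 26 to 46 in LPS libraries. Fdft1 shared 26.5% of its windows with Ctsb, which lies opposite to 18.3% of its exonic bases, and with Gm6781, so its level is uncertain. Sc5d, a sterol desaturase, went from 33.6 ± 11.3 to 14.9 ± 1.25 CPM (log2 fold change −1.17, adjusted p = 0.00221) without overlap. Msmo1, a sterol methyl oxidase, went from 96.2 ± 31.8 to 48.3 ± 10.1 CPM (log2 fold change −0.99, adjusted p = 0.00592), and Lss, lanosterol synthase, from 25.0 ± 7.43 to 14.5 ± 1.83 CPM (log2 fold change −0.78, adjusted p = 0.00958). In both, Vehicle replicate 3 lay within the range of the LPS libraries, at 54.7 CPM for Msmo1 and 15.6 CPM for Lss. Ebp, a sterol isomerase, differed least among the called sterol genes, with 32.3 ± 3.15 CPM in Vehicle and 23.7 ± 3.74 CPM in LPS (log2 fold change −0.44, adjusted p = 0.0154). Unlike most of these genes it was highest in Vehicle replicate 3 (37.0 CPM), and the call was lost without that library (log2 fold change −0.31, adjusted p = 0.0646; 0.0144 to 0.0646 over the libraries left out in turn) and without replicate 3 of both groups (−0.33). Nsdhl, a sterol dehydrogenase of the demethylation steps, had 18.04 ± 4.00 and 15.5 ± 3.34 CPM (log2 fold change −0.22, standard error 0.20, adjusted p = 0.361) with overlapping groups. It was lowest of its group in Vehicle replicate 3 (12.6 CPM) and highest in LPS replicate 3 (19.5 CPM), and without replicate 3 of both groups its value of −0.41 was called (adjusted p = 0.0363). With library totals it was called too, at −0.92 (adjusted p = 0.00212), and over all other alternatives its adjusted p ran from 0.108 to 0.762.

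The 8 genes of the fatty acid steps were all tested and all lower after LPS (median log2 fold change −2.04). Fasn (ENSMUSG00000025153, chromosome 11 from 120805846 to 120824547), fatty acid synthase, was at 87.1, 98.5, 53.9 and 93.2 CPM in Vehicle and at 8.92, 7.62, 3.08 and 8.98 CPM in LPS. Replicate 3 was the lowest library of each group, the groups were far apart, and the fall was 11.7-fold (log2 fold change −3.55, standard error 0.33, adjusted p = 1.38e-05). Fads1 (ENSMUSG00000010663, chromosome 19 from 10182888 to 10196877), the delta-5 desaturase of polyunsaturated fatty acids, had 81.5, 62.0, 63.7 and 65.0 CPM in Vehicle and 11.0, 10.2, 4.43 and 8.66 CPM in LPS. All Vehicle libraries were well above all LPS libraries (log2 fold change −2.99, standard error 0.25, adjusted p = 7.34e-06). Elovl6 (ENSMUSG00000041220, chromosome 3 from 129532355 to 129638495), which elongates saturated chains, gave 4.24, 5.99, 2.47 and 6.68 CPM in Vehicle and 0.838, 0.545, 0 and 0.649 CPM in LPS. The LPS levels came from 14, 10, 0 and 12 counts, so the size of the fall is imprecise (log2 fold change −3.28, standard error 0.66, adjusted p = 0.00173). Fads2 (ENSMUSG00000024665, chromosome 19 from 10062765 to 10101746), the delta-6 desaturase, was at 3.54, 5.81, 1.62 and 6.32 CPM in Vehicle and at 1.08, 1.14, 0.233 and 1.46 CPM in LPS. Vehicle replicate 3 was barely above the highest LPS library (log2 fold change −2.15, standard error 0.55, adjusted p = 0.00685).

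Acaca, acetyl-CoA carboxylase, which makes malonyl-CoA, went from 10.9 ± 1.51 to 3.25 ± 0.385 CPM (log2 fold change −1.74, adjusted p = 1.56e-05) without overlap. It shared 30.4% of its windows with other genes, mostly with Gm5182, whose counts were 261 to 316 in Vehicle and 39 to 73 in LPS. Elovl5, which elongates polyunsaturated chains, went from 67.4 ± 5.14 to 36.9 ± 5.31 CPM (log2 fold change −0.87, adjusted p = 0.000176), the smallest fall of the fatty acid genes. Scd2, a stearoyl-CoA desaturase that is abundant in brain, went from 85.8 ± 37.3 to 26.5 ± 3.38 CPM (log2 fold change −1.69, adjusted p = 0.00172). Its Vehicle replicate 3, at 30.8 CPM, lay just under the highest LPS library, at 31.1 CPM, while the remaining Vehicle libraries were at 94.4 to 111 CPM. Scd1, the related desaturase of liver and fat, had 7.30 ± 4.35 CPM in Vehicle and 1.92 ± 1.15 CPM in LPS (log2 fold change −1.94, adjusted p = 0.0236), and its Vehicle replicate 3 (1.78 CPM) also lay among the LPS libraries. The call of Scd1 was lost without Vehicle replicate 2, Vehicle replicate 4 or LPS replicate 2 (log2 fold change −1.56, −1.71 and −1.92), with an adjusted p of 0.00693 to 0.0792 over the libraries left out in turn.

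Levels of different genes were compared per kilobase of exonic length. In Vehicle, Srebf2 was highest of the SREBP genes (23.1 ± 3.94 CPM per kb, SD, n = 4), followed by Elovl5 (19.1 ± 1.46), Hmgcs1 (18.1 ± 5.02) and Insig1 (16.6 ± 5.31), neighbours that lay within each other's spread. Fdps (0.0589 CPM per kb) and Idi1 (0.153), whose counts are uncertain as said above, were lowest, followed by Acaca (0.638 ± 0.0883) and Elovl6 (0.753 ± 0.293). In LPS the highest levels were those of Elovl5 (10.5 ± 1.51 CPM per kb), Ebp (10.3 ± 1.62) and Srebf1 (10.1 ± 3.65), again within each other's spread, and Srebf2 was at 7.15 ± 2.97. Dhcr7, Stard4 and Fasn, at 5.14, 8.29 and 7.60 CPM per kb in Vehicle, were at 0.615, 0.619 and 0.653 CPM per kb in LPS.

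For 6 pairs of related SREBP genes, the log2 ratio of their levels per length was formed within each library, where it does not depend on library scaling, and tested by a two-sided exact permutation over the 70 divisions of the libraries. The ratio of Srebf1 to Srebf2 was −1.14, −1.17, −0.89 and −1.14 in Vehicle replicates 1 to 4 and 0.37, 0.71, 0.57 and 0.46 in LPS replicates 1 to 4. Srebf1 was thus below Srebf2 in every Vehicle library and above it in every LPS library, a difference of 1.61 (exact permutation p = 0.0286, adjusted p = 0.0571 over the 6 ratios). Sqle over Fdft1 was 2.59, 3.19, 2.21 and 2.85 in Vehicle and 1.92, 1.35, 0.33 and 0.90 in LPS, and Elovl6 over Elovl5 was −4.81, −4.43, −5.48 and −4.30 in Vehicle and −6.41, −6.86, −11.18 and −6.79 in LPS. Both were lower in every LPS library, by differences of −1.58 and −3.05, each again with an exact permutation p of 0.0286 and an adjusted p of 0.0571. A p of 0.0286 is the smallest that 70 divisions allow, and as only 3 of the 6 ratios reached it, none passed the threshold after adjustment. With a prior count of 5 in place of 0.5, these 3 ratios and Fads1 over Fads2 passed (adjusted p = 0.0429 each), with Elovl6 over Elovl5 at −1.94. The value of Elovl6 over Elovl5 rested in part on LPS replicate 3, where Elovl6 had 0 counts, and was −1.93 without that library. Fads1 over Fads2 averaged 3.60 ± 0.93 in Vehicle and 2.73 ± 0.65 in LPS (exact permutation p = 0.143, adjusted p = 0.214), with overlapping groups. Within each replicate number this ratio was lower in LPS (exact sign flip p = 0.125, the smallest that 4 pairs allow). For replicates 1 to 4 it was 3.97, 2.87, 4.74 and 2.81 in Vehicle and 2.76, 2.59, 3.57 and 2.00 in LPS. Scd1 over Scd2 averaged −3.53 ± 0.42 and −3.95 ± 1.32 (exact permutation p = 0.8286, adjusted p = 0.994), and Insig1 over Scap 1.497 ± 0.50 and 1.49 ± 0.74 (exact permutation p = 1, adjusted p = 1). These pairs overlapped between groups, which does not show that their ratios were equal.

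**Figure D2:**
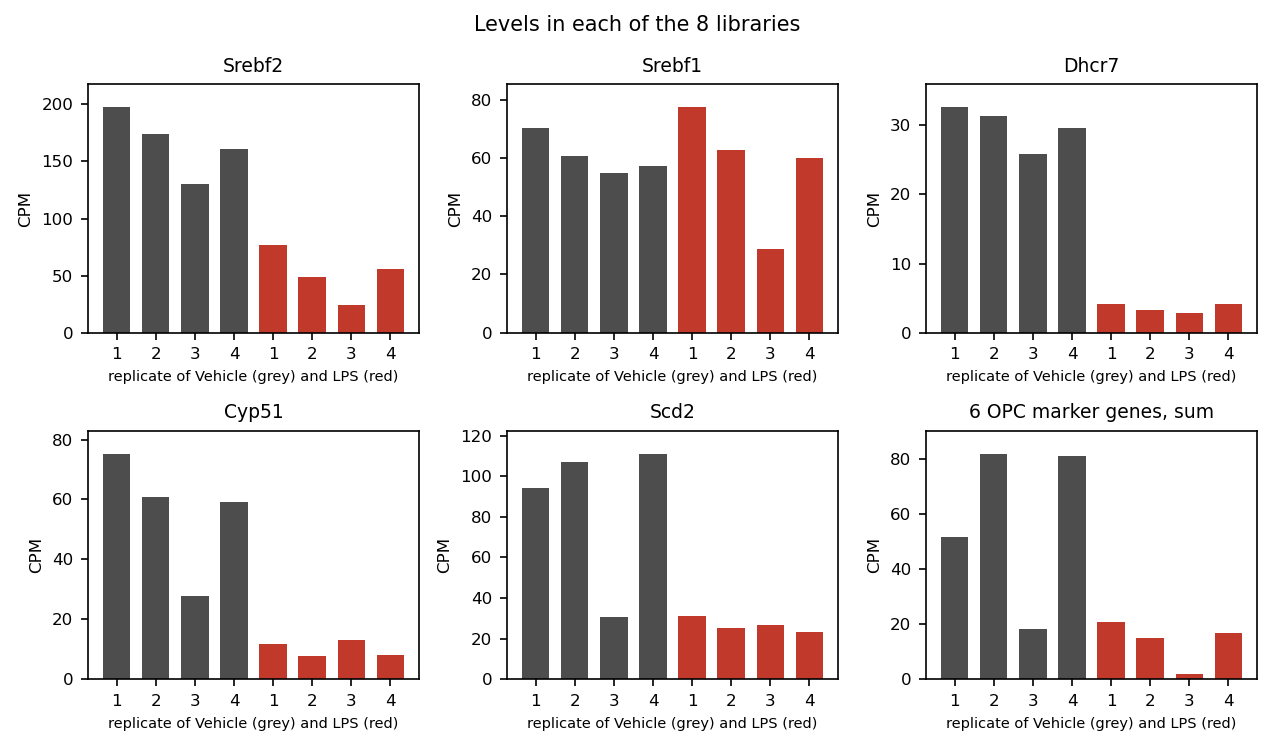
Levels of Srebf2, Srebf1, Dhcr7, Cyp51 and Scd2 and the summed level of 6 oligodendrocyte precursor cell (OPC) markers in each of the 8 libraries, in CPM, with grey bars for Vehicle and red bars for LPS in order of replicate number. Dhcr7 is even within each group, whereas Scd2 in Vehicle replicate 3 (30.8 CPM) is near the LPS libraries, and the OPC sum is lowest in replicate 3 of each group (18.3 and 1.87 CPM).

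Another 30 genes of sterol and fatty acid metabolism, outside the 30 SREBP genes, were examined beside them. Of these, 26 were tested, 9 were lower, 8 were higher and 9 were not called, with a median log2 fold change of −0.20, so the shares called (34.6% lower) were near those of all tested genes in the main fit. Without LPS replicate 3, 14 of them were lower (35% of all tested genes). The counts also depended on scaling, with 15 lower and 7 higher under upper quartile normalization (39.6% and 25.9% of all tested genes) and 20 lower and 2 higher with library totals (61.1% and 14.4% of all tested genes). The largest falls were those of Tm7sf2, a sterol reductase, of Hacd2, a dehydratase of fatty acid elongation, and of Pank3, a pantothenate kinase of coenzyme A synthesis. Tm7sf2 went from 4.96 ± 1.59 to 0.870 ± 0.233 CPM (log2 fold change −2.51, adjusted p = 0.000132), Hacd2 from 14.6 ± 3.07 to 3.41 ± 0.450 CPM (log2 fold change −2.09, adjusted p = 1.15e-05) and Pank3 from 174 ± 26.6 to 52.8 ± 6.84 CPM (log2 fold change −1.72, adjusted p = 7.42e-06). The largest rises were those of Me1, the malic enzyme that supplies NADPH, from 4.32 ± 2.55 to 10.7 ± 2.57 CPM (log2 fold change 1.31, adjusted p = 0.0097), of Insig2, given below, and of Pdss1, of ubiquinone side chain synthesis, from 2.28 ± 0.571 to 5.03 ± 0.418 CPM (log2 fold change 1.14, adjusted p = 0.00116). Me1 shared 28.3% of its windows with other annotated genes. Insig2, the other INSIG gene, was at 35.4, 28.4, 29.7 and 30.1 CPM in Vehicle and 57.7, 67.3, 108 and 63.1 CPM in LPS, all above Vehicle (log2 fold change 1.26, standard error 0.19, adjusted p = 0.000312), the opposite direction to Insig1. The genes of both SREBP-cleaving proteases, chosen for mention after their values were seen, were lower without overlap, Mbtps1 (site-1) from 98.7 ± 2.82 to 43.2 ± 6.78 CPM (log2 fold change −1.19, adjusted p = 1.9e-05) and Mbtps2 (site-2) from 58.5 ± 2.10 to 30.99 ± 1.86 CPM (log2 fold change −0.92, adjusted p = 1.3e-05). Mbtps2 shares 28.4% of its exonic bases with an overlapping gene on its own strand. Acly, which supplies cytosolic acetyl-CoA to both branches, was at 207 ± 18.6 and 204 ± 6.88 CPM and was not called (log2 fold change −0.02, adjusted p = 0.878), also named after its value was seen.

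**Figure D3:**
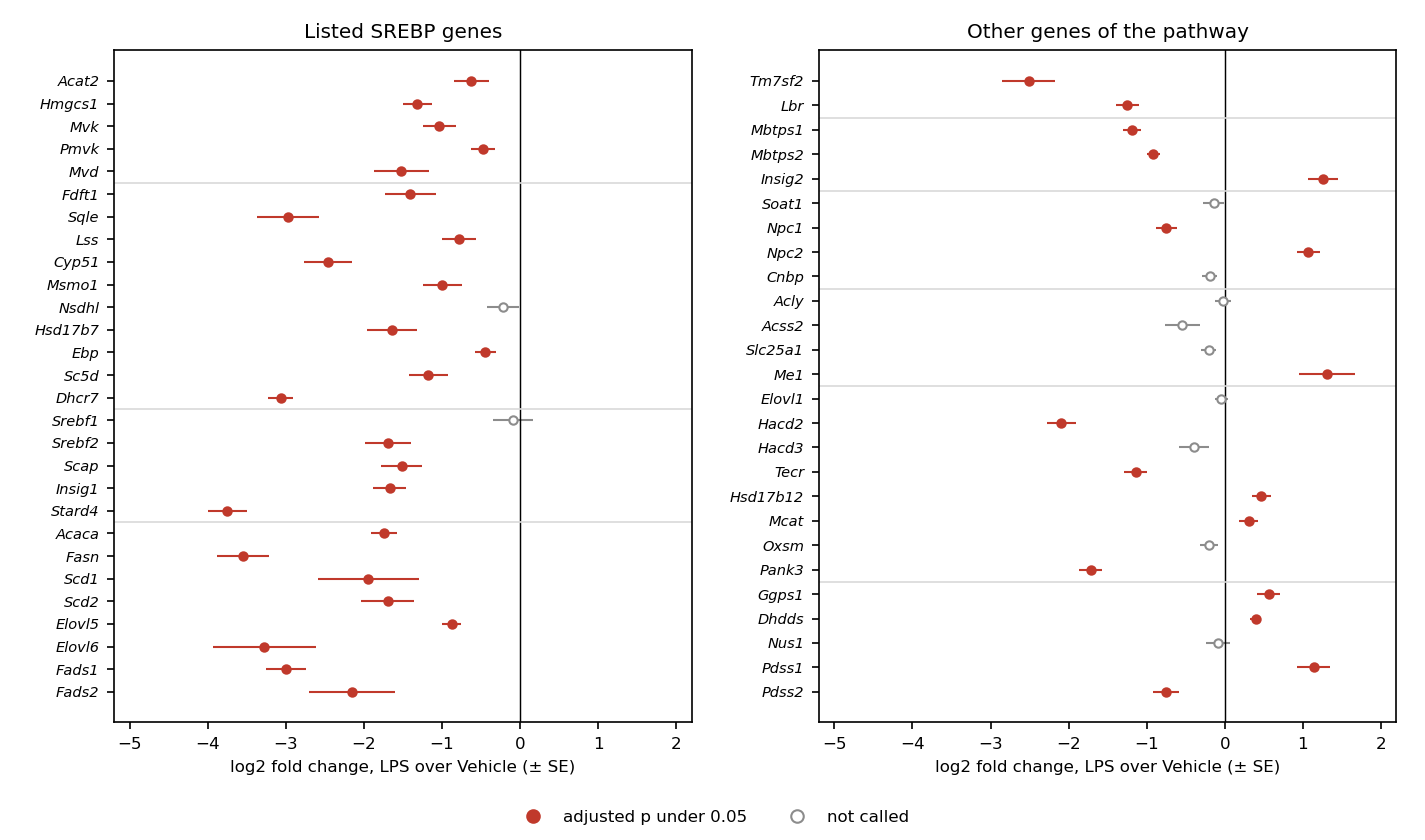
Log2 fold change of LPS over Vehicle (points) with its standard error (lines) for the 28 tested SREBP genes, ordered by role, and for the 26 tested other genes of the pathway, with filled red points for an adjusted p under 0.05 and open grey points for genes not called. The SREBP genes all lie at or left of −0.09, and the other genes lie on both sides of 0, from −2.51 for Tm7sf2 to 1.31 for Me1.

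Promoters of 300 bases, from 250 before to 50 after a gene's start, were taken from the RefSeq table of GRCm38.p6, which held 29 promoters of 23 of the SREBP genes. The table had no entry for Scd1, Scd2, Sqle, Fdft1, Fdps, Fads1 and Stard4. The letters TCACNCCAC, a form of the sterol regulatory element, were found on either strand in 1 of the 29 promoters, that of Hmgcs1, and in 1.24% of all 32851 promoters of that length. CACGTG, the E-box that SREBPs can also bind, was found in 7 of the 29 (24.1%; 7.15% of all), CCAAT, the box of NF-Y, in 19 (65.5%; 37.4% of all), and GGGCGG, the GC box of Sp factors, in 21 (72.4%; 35.7% of all). By gene, 6 of the 23 held CACGTG (Elovl5, Hsd17b7, Insig1, Sc5d, Scap and, in another promoter than the one printed below, Dhcr7), 18 held CCAAT and 18 held GGGCGG. The last letters of TCACNCCAC can form the start of CACGTG, and the end of ATTGG, the reverse of CCAAT, can form the start of GGGCGG. Each promoter of Scap held CACGTG and GGGCGG. The promoters of Scap overlap each other, so the same letters may be counted more than once in the shares of promoters. A match is a description of letters and not a site in use, and no test was made.

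The promoter of Hmgcs1 is printed as the promoter with the sterol element, and those of Insig1, Dhcr7 and Cyp51 were chosen after the matches were seen, as a regulator and sterol genes that were all lower after LPS. Each is written in the direction of transcription with matches in capitals (CCAAT reads ATTGG and GGGCGG reads CCGCCC where the match is on the other strand). They cover chr13:119690101-119690400 (plus strand) for Hmgcs1, chr5:28071162-28071461 (plus) for Insig1, chr7:143829964-143830263 (plus) for a start inside the annotated gene Dhcr7, and chr5:4104648-4104947 (minus) for Cyp51. Of the promoters of Dhcr7, the one with the most matches is printed, and the others lie near the start of the annotated gene.
Hmgcs1: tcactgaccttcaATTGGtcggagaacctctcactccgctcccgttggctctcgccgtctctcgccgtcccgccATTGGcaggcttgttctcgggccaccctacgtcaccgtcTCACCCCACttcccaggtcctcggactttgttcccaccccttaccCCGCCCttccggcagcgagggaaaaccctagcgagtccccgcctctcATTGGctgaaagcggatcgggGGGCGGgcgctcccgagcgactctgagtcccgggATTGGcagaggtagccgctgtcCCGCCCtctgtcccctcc
Insig1: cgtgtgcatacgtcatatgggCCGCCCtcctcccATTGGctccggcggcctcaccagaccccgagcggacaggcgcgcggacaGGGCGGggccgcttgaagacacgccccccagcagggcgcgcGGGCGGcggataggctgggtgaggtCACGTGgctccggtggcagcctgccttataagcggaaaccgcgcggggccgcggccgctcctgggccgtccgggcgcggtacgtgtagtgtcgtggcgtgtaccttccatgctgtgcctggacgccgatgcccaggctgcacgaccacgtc
Dhcr7: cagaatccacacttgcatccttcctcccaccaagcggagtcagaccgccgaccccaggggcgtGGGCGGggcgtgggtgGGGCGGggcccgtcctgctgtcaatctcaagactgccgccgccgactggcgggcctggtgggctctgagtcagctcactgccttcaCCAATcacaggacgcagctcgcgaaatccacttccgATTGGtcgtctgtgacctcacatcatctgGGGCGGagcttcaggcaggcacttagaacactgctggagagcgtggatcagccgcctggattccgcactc
Cyp51: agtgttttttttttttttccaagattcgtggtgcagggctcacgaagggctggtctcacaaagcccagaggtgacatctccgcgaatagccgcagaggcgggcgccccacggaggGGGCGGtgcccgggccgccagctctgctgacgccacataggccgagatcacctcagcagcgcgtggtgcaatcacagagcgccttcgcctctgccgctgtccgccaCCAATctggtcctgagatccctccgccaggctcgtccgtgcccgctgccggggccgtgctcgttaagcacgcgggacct

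In Hmgcs1 the sterol element TCACCCCAC began at position −137 from the start, between CCAAT boxes on the reverse strand at −176 and −45. Insig1 held CACGTG at −101 and an ATTGG at −216, Dhcr7 held CCAAT at −85 and ATTGG at −49, and Cyp51 held CCAAT at −29 and GGGCGG at −135. The log2 fold changes of these genes were −1.32, −1.67, −3.07 and −2.46 for Hmgcs1, Insig1, Dhcr7 and Cyp51.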

How the data were processed

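The authors deposited raw counts per Ensembl gene for 8 libraries of single-end 50-base reads, which they had filtered, aligned to GRCm38 with GSNAP and counted with HTSeqGenie from uniquely aligned reads only. The labels name a stranded mRNA kit and a NovaSeq and the study's methods another TruSeq kit and a HiSeq, so neither the kit nor the use of strand in counting is settled. Symbols, positions, overlaps and shared 50-base windows came from GENCODE vM21, and promoters from the RefSeq table of GRCm38.p6. Counts were filtered with filterByExpr (minimum count 10, minimum total 15), scaled by TMM and tested two-sided with the quasi-likelihood test of edgeR 4.0.16 in R 4.3.3 across all 13847 genes that passed, with Benjamini-Hochberg adjustment and a threshold of 0.05. The standard error of an edgeR log2 fold change was calculated as its absolute value over the square root of the F statistic of the test. DESeq2 1.42.0 was an alternative. Ratios used log2 CPM with a prior count of 0.5 and scipy 1.17.1, beside pandas 2.3.3 and numpy 2.4.6 under Python 3.11.15, and matplotlib 3.10.9 drew the plots. The main edgeR fit and the DESeq2 fit had been tested on simulated counts, and the other alternatives had not. The simulation changed far fewer genes than were called here, so it did not test the scaling under changes this wide. The pairing of replicate numbers was checked by the correlation of same-numbered libraries' deviations from their group means over 8382 genes, which gave 0.352, 0.165, 0.179 and 0.140 as r for the numbers 1 to 4, all over the limit of 0.1, so a replicate block was run beside the unpaired fit; the crossed pairs of replicates 2 and 4 gave 0.146 and 0.151. P-values measure the spread between these libraries, and the labels name no sequencing batch, so batch and treatment cannot be told apart if they coincided. The SREBP genes and the lists of other genes were chosen with earlier results of these data known. All 30 SREBP genes were named; values in every library were given for the regulators and, in each other role, for the 4 called genes with the largest absolute log2 fold change, and of the other pathway genes the 3 largest called changes in each direction were named. Some genes of the pathway are not reported here. Alternatives were other tools, filters and scalings, stricter thresholds, the replicate block, another prior count and leaving out each library in turn.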

Additional observations from a re-analysis of the deposited data

Results flagged for a closer look

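Among 56 groups of 4 libraries, that is the Vehicle and the LPS group of each of the 28 tested SREBP genes, 8 held a library that passed the critical value of Dixon's outlier test for 4 values on log2 CPM (a gap to the nearest library of 0.830 to 0.885 of the group's range), and chance flags about 1 in 20 groups. In Vehicle replicate 3, Acat2 was at 4.95 CPM, with the other Vehicle libraries at 8.68 to 9.69, and Scd2 was at 30.8 CPM, with the others at 94.4 to 111. Mvd was at 24.3 CPM in Vehicle replicate 1 and at 8.68 to 10.1 in the others, and Scap at 46.7 CPM in Vehicle replicate 2 and at 40.4 to 41.2 in the others. LPS replicate 3 stood apart for 4 genes, with Fdft1 at 2.15 CPM (others 1.46 to 1.56), Fasn at 3.08 CPM (others 7.62 to 8.98), Elovl6 at 0 CPM (others 0.545 to 0.838) and Fads2 at 0.233 CPM (others 1.08 to 1.46). It was high for Fdft1 and low for the other 3 genes. Replicate 3 of either group accounted for 6 of the 8, and the cause was not tested. The share of flagged groups over all tested genes was not determined, so whether 8 of 56 is unusual for these libraries was not tested.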

How the results depend on the processing

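With each library left out in turn, 23 to 26 SREBP genes were called lower and 0 higher (28.6% to 35% and 27.6% to 30.8% of all tested genes). These fits kept 23 to 25 of the 26 calls of the main fit, with a median log2 fold change of −1.74 to −1.40. With the replicate block, which uses the pairing by number, the same 26 genes were called lower (35.6% of all tested genes lower). The median was then −1.58, and no call of a SREBP gene changed. DESeq2, no filter, upper quartile normalization and DESeq2 size factors in edgeR kept all 26 calls (20.4% to 39.6% of all tested genes lower), at least 10 counts in every library left 25 genes and 23 calls (34.5% of all tested genes lower), an adjusted p under 0.01 left 22 (26.1%), and an absolute log2 fold change of at least 1 left 20 (21.7%). Library totals without composition scaling, added after seeing the data, moved the median to −2.25, and the median of all tested genes by −0.68, and upper quartile normalization moved the latter by −0.16. Of the other pathway genes, 15 were lower with upper quartile normalization (39.6% of all tested genes). With library totals, 20 were lower and 2 higher (61.1% and 14.4% of all tested genes). At an absolute log2 fold change of at least 1, there were 6 lower and 4 higher (21.7% and 16.1% of all tested genes) and 13 lower and 7 higher with at least 10 counts in every library (34.5% and 32.1%). Leaving out libraries gave 9 to 14 lower and 7 to 8 higher (28.6% to 35% and 27.6% to 30.8% of all tested genes). The replicate block gave 10 lower and 7 higher (35.6% and 29.7% of all tested genes). The log2 fold change of Srebf1 reversed to 0.17 without replicate 3 of both groups, and ran from −0.26 to 0.14 over libraries left out in turn, being 0.04 without Vehicle replicate 1 and 0.14 without LPS replicate 3. With a prior count of 5 in place of 0.5, 4 ratios passed the adjusted threshold, Srebf1 over Srebf2 at 1.61, Fads1 over Fads2 at −1.18, Elovl6 over Elovl5 at −1.94 and Sqle over Fdft1 at −1.66 (exact permutation, adjusted p = 0.0429 each), whereas leaving out libraries gave 0.0571 to 0.114 for all but the Fads ratio and 0.214 to 0.557 for that. Exact sign flips within numbered pairs gave 0.125 at the smallest, which 4 pairs allow, and an adjusted p of 0.188 for those 4. Over libraries left out in turn the ratios ran from 1.55 to 1.68 for Srebf1 over Srebf2, from −1.15 to −0.49 for Fads1 over Fads2, from −3.52 to −1.93 for Elovl6 over Elovl5, from −1.85 to −1.32 for Sqle over Fdft1, from −0.68 to 0.24 for Scd1 over Scd2, with the reversal to 0.24 without LPS replicate 3, and from −0.34 to 0.24 for Insig1 over Scap. Insig1 over Scap reversed to 0.19, 0.05, 0.24 and 0.09 without Vehicle replicate 1, Vehicle replicate 4, LPS replicate 1 and LPS replicate 2. The cause of these changes was not tested. Low counts limit Idi1, Fdps, Elovl6, Fads2, Fdft1 and Scd1 most, whose LPS libraries held from 0 to 52 counts.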

Other observations

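Enzymes that make or break down oxysterols, sterols that are known to bind INSIG proteins and the nuclear receptor LXR, were examined as a list of 6, of which 2 were tested. Ch25h, cholesterol 25-hydroxylase, was at 13.7, 17.0, 30.6 and 20.6 CPM in Vehicle replicates 1 to 4 and at 1630, 1046, 627 and 1252 CPM in LPS replicates 1 to 4, 55.6-fold higher (log2 fold change 5.80, standard error 0.38, adjusted p = 1.72e-06). Every LPS library was above every Vehicle library, and replicate 3 was the highest of the Vehicle group and the lowest of the LPS group. Of the exonic bases of Ch25h, 11.5% lie opposite to exons of Gm26902. Cyp27a1, the mitochondrial sterol 27-hydroxylase, had 30.6, 40.8, 51.1 and 36.8 CPM in Vehicle and 0.598, 0.327, 0.233 and 0.433 CPM in LPS (log2 fold change −6.66, standard error 0.27, adjusted p = 1.47e-07), from 10, 6, 5 and 8 counts in LPS. Cyp46a1 and Cyp7b1 did not pass the filter on low counts, and Hsd3b7 and Cyp7a1 had 0 counts in every library; of Hsd3b7, 62.4% of the exonic bases lie opposite to another gene, 62.0% overlap a gene on its own strand and 83.1% of the windows also occur in other genes, so its count is uncertain. Of the genes that handle cholesterol inside cells, named after their values were seen, Npc1 went from 262 ± 21.3 to 156 ± 23.2 CPM (log2 fold change −0.75, adjusted p = 0.000736) and Npc2, its partner in moving cholesterol out of lysosomes, from 1322 ± 194 to 2779 ± 216 CPM (log2 fold change 1.07, adjusted p = 0.000172), both without overlap of the groups (SD, n = 4). The other 2 genes on the list that held Npc1 and Npc2, Soat1 and Cnbp, were not called (log2 fold change −0.14 and −0.19, adjusted p = 0.375 and 0.0990).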
